A study of Homo sapiens with 15 samples.

Results

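The ENZ-resistant subline VCaP-CT-ER was compared with VCaP-T, the testosterone-supplied subline from which it descends, to find which genes sat at the VCaP-T level and which lay above or below it. The comparison took the 3 libraries labelled CT-ER and the 3 labelled T, 6 of the 15 bulk RNA-seq libraries of the series, and tested 19621 of 58381 listed genes. The prostate cancer cell line VCaP carries the TMPRSS2-ERG gene fusion and secretes PSA. VCaP-T was grown in RPMI 1640 with 10% DCC-FBS, serum stripped of steroids, and 10 nM testosterone for 7 months. VCaP-CT came from VCaP-T after 10 more months at low testosterone, for which the protocol gives 0.1 nM and the sample characteristics give 10 nM. VCaP-CT-ER came from VCaP-CT kept in 10 µM enzalutamide (ENZ) until growth returned, and the protocol spells it VCaP-CT-ET. Each subline was derived once, so treatment, time in culture and the descent of the cells cannot be told apart, and the labels do not say whether ENZ was present at harvest. The labels number 3 replicates per subline without naming separate cultures, and the study describes them as biological replicates. The p-values measure the spread between these libraries of a single derivation.

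Androgens bind a nuclear receptor in the luminal cells of the prostate, and the activated receptor switches on genes of secretion, lipid metabolism and differentiation. KLK3, which encodes PSA, is the best known of these targets, and its promoter and upstream enhancer hold response elements for that receptor. ENZ is an antiandrogen that keeps the hormone from acting through the receptor, and cells that grow out under it may or may not regain the programme that testosterone maintained. The promoter of KLK3 (chr19:50854665-50854964, plus strand of GRCh38.p14, from RefSeq, 250 bases before the start of the gene to 50 after it) is shown because the results open with this gene. The capitals mark AGAACA, one arm of the androgen response element, 170 bases before the start.
KLK3: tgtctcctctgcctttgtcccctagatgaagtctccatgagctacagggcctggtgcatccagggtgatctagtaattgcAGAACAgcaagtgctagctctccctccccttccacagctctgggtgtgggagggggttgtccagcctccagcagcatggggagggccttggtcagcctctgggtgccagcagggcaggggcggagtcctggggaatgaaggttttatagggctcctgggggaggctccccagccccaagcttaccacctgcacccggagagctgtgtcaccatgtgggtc
AGAACA was searched on both strands and occurred in 14.8% of 35116 RefSeq promoters of this length, and in 17.5% of the 27305 gene symbols they belong to. Of the 33 tested androgen-induced genes with a promoter in the RefSeq set, 6 held it (18.2%). These were KLK3, FKBP5, PMEPA1, TRPM8, SGK1 and IQGAP2. The full palindromic element, with both arms intact, occurred in none of the 33 and in 1 of all promoters.

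The gene counts of the 6 libraries summed to between 36852286 and 46935279. Mitochondrial transcripts made up 8.16% to 8.39% of VCaP-T and 9.17% to 9.56% of VCaP-CT-ER, and the part of this difference in the results was not tested. The prostate epithelial markers KRT8, KRT18, EPCAM, KLK3, HOXB13, TMPRSS2 and ERG were detected in both sublines. Of 13 markers of immune, stromal, endothelial and blood cells, 7 were too low to test, with PTPRC at no more than 2 counts and CD3E and COL1A2 at 0 in every library. The summed level of the other 6 ranged from 20.5 to 24.2 CPM (counts scaled by library size) in VCaP-T and from 185 to 216 CPM in VCaP-CT-ER, and nearly all of the latter came from LUM, described further on. DCN, the neighbouring fibroblast gene, had a mean of only 0.417 CPM in VCaP-CT-ER.

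VCaP-CT-ER did not lie close to VCaP-T. Of the 19621 genes, 13539 differed by the quasi-likelihood test of edgeR at a Benjamini-Hochberg adjusted p under 0.05 (69.0%), 6724 of them above VCaP-T (34.3%) and 6815 below it (34.7%). With a test against a 1.5-fold change, 2642 genes lay above VCaP-T (13.5%) and 3499 below it (17.8%), 31.3% in all, and these shares are the background for every list that follows. A gene was taken to sit at the VCaP-T level where the whole 95% interval of its log2 fold change (limma-voom) was inside 1.5-fold, which held for 6472 genes (33.0%). The other 7008 genes (35.7%) met neither condition. Genes at the VCaP-T level were not all free of change, since 3410 of them (17.4% of all genes) passed the test against no change with a difference under 1.5-fold.

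**Figure D1:**
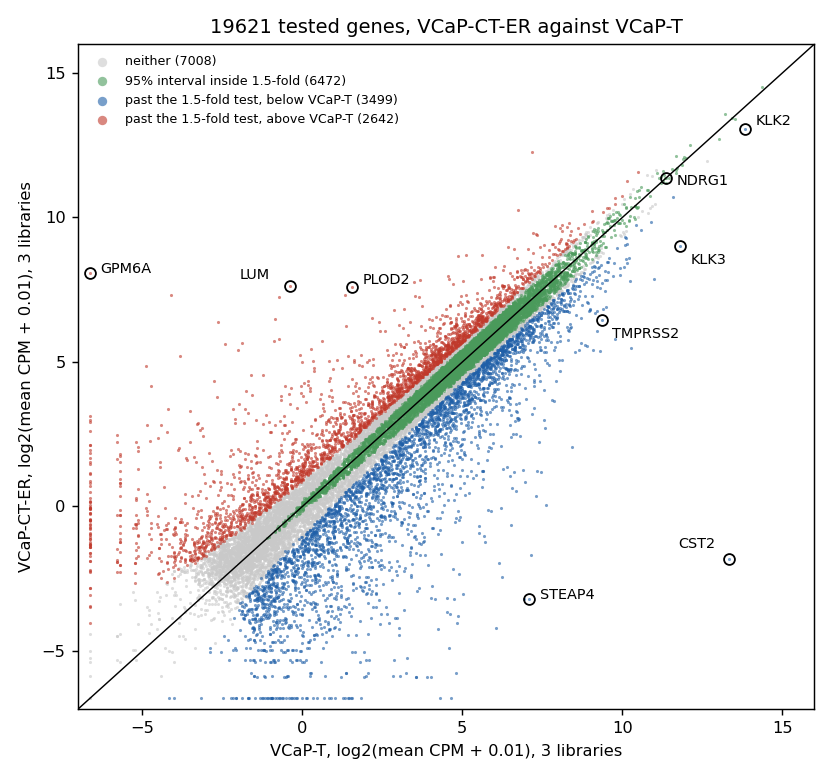
Each point is one of the 19621 tested genes, with the mean CPM of the 3 VCaP-T libraries on the x axis and of the 3 VCaP-CT-ER libraries on the y axis, both as log2(CPM + 0.01). Red and blue genes passed the test against a 1.5-fold change (2642 above, 3499 below), green genes sat at the VCaP-T level (6472), grey genes met neither condition (7008), and the line marks equal levels.

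The median absolute log2 fold change against VCaP-T was 0.52 in VCaP-CT-ER, beside 0.47 in VCaP-CT, its parent. In VCaP-CT-ER 5071 genes were over 2-fold from VCaP-T, and in VCaP-CT 4253. These 2 comparisons share the VCaP-T libraries, so the values stand side by side and were not tested against each other. The correlation of log2 CPM across genes, which are not independent replicates, was 0.915 to 0.918 between libraries of VCaP-T and VCaP-CT-ER and 0.936 to 0.940 between those of VCaP-T and VCaP-CT. Of the 13849 protein-coding genes, 12.9% lay above VCaP-T by the 1.5-fold test, 20.1% lay below it and 40.7% sat at its level. Of the 2824 lncRNA genes, 18.7% lay above, 14.7% below and 9.56% at the level. The share at the level grew with abundance, from 1.35% of the 4964 genes with an average log2 CPM under 0 to 59.3% of the 3296 genes over 6, since the intervals of genes with few counts are wide.

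Androgen-induced genes lay on both sides of VCaP-T. Of 49 listed genes, 20 of them from a signature that the study used, 48 were tested and ORM1 was too low. By the 1.5-fold test 18 lay below VCaP-T (37.5%) and 10 above it (20.8%), while 15 sat at its level (31.2%, near the 33.0% of all genes) and 5 met neither condition. Their median log2 fold change was −0.24, beside 0.01 over all genes. In VCaP-CT 16 of the 48 lay below VCaP-T (14.2% of all genes did), 3 above it (11.3% of all genes) and 18 at its level (35.6% of all genes), with a median of −0.42. Their summed level ranged from 35771 to 36397 CPM in VCaP-T, from 18484 to 19849 CPM in VCaP-CT and from 23086 to 24095 CPM in VCaP-CT-ER. KLK2, described next, made up a large part of these sums, so they do not stand for most genes of the list.

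KLK3 (ENSG00000142515, chr19:50854915-50860764, plus strand) was measured at 3617, 3532 and 3532 CPM in VCaP-T and at 527, 535 and 499 CPM in VCaP-CT-ER. The 2 groups of libraries were far apart, and VCaP-CT lay lower still, with a mean of 33.2 CPM. The log2 fold change of VCaP-CT-ER against VCaP-T was −2.77 (standard error 0.0371, edgeR adjusted p = 3.78e-21), a level 6.84-fold lower. KLK3 was also higher in VCaP-CT-ER than in VCaP-CT, by 3.97 on the log2 scale (edgeR adjusted p = 1.95e-22). KLK2, the neighbouring kallikrein protease (chr19:50861568-50880567), had 14767, 14387 and 14148 CPM in VCaP-T and 8444, 8986 and 8175 CPM in VCaP-CT-ER. Its groups did not overlap either, but its loss was small, with −0.76 on the log2 scale (adjusted p = 9.66e-12 by edgeR), and its 7961 CPM in VCaP-CT were close to the level in VCaP-CT-ER. FKBP5, a co-chaperone of steroid receptors (chr6:35573585-35728583), had 403, 429 and 425 CPM in VCaP-T and 246, 247 and 258 CPM in VCaP-CT-ER. This was −0.74 on the log2 scale (adjusted p = 2.41e-11 by edgeR), with 123 CPM in VCaP-CT below both.

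TMPRSS2, a membrane serine protease whose promoter drives the fusion gene in these cells (chr21:41464551-41531116), had 645, 633 and 676 CPM in VCaP-T and 88.8, 89.3 and 87.3 CPM in VCaP-CT-ER. It showed no step back towards VCaP-T, because VCaP-CT had 137 CPM, more than VCaP-CT-ER (log2 fold change of VCaP-CT-ER against VCaP-CT −0.63). ERG, the ETS factor on the other side of the fusion (chr21:38380027-38661780), had 515, 537 and 542 CPM in VCaP-T and 272, 282 and 273 CPM in VCaP-CT-ER. The log2 fold change against VCaP-T was −2.88 for TMPRSS2 (edgeR adjusted p = 8.82e-21) and −0.95 for ERG (edgeR adjusted p = 8.03e-14). The counts do not separate the reads of the fusion from those of the unfused genes.

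STEAP4, a metalloreductase (chr7:88270892-88306891), was almost absent from VCaP-CT-ER. It had 129, 140 and 136 CPM in VCaP-T and 0.0828, 0.0627 and 0.149 CPM in VCaP-CT-ER, with 1.75 CPM in VCaP-CT. TRPM8, a cold-sensing ion channel (chr2:233917398-234019522), followed another course, with 140, 143 and 137 CPM in VCaP-T, a mean of 203 CPM in VCaP-CT and only 0.207, 0.376 and 0.323 CPM in VCaP-CT-ER. The log2 fold changes against VCaP-T were −10.42 (edgeR adjusted p = 2.4e-21) and −8.85 (edgeR adjusted p = 2.27e-23). Both genes overlap an unnamed gene on the other strand, and the counting did not use strand. MAF, a transcription factor of the leucine zipper family, had 17.6, 15.95 and 17.8 CPM in VCaP-T and 2.22, 1.96 and 2.19 CPM in VCaP-CT-ER, with 3.55 CPM in VCaP-CT.

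Other androgen-induced genes sat at the VCaP-T level, some of which had been below it in VCaP-CT. NDRG1, a gene of stress response and differentiation (chr8:133237171-133302022), had 2634, 2581 and 2698 CPM in VCaP-T and 2668, 2634 and 2586 CPM in VCaP-CT-ER. The libraries overlapped, and the 95% interval of the log2 fold change was −0.08 to 0.07, while VCaP-CT had a mean of 1325 CPM. ACSL3, an acyl-CoA synthetase that overlaps ACSL3-AS1, had 545, 602 and 588 CPM in VCaP-T, 401, 404 and 449 CPM in VCaP-CT-ER and a mean of 276 CPM in VCaP-CT. Its interval, −0.58 to −0.36, lay inside 1.5-fold although the groups did not overlap. KLK4, PMEPA1, ABHD2, STEAP2 and NCAPD3 also sat at the VCaP-T level, with log2 fold changes between −0.17 and 0.24. Of these, ABHD2 and STEAP2 were past the 1.5-fold test below VCaP-T in VCaP-CT (log2 fold changes −0.70 and −0.78), and KLK4, PMEPA1 and NCAPD3 were not.

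Further androgen-induced genes lay above VCaP-T. AZGP1, a secreted zinc-binding glycoprotein with 2 pseudogenes (chr7:99966720-99976157), had 9.83, 9.15 and 8.29 CPM in VCaP-T and 110, 115 and 115 CPM in VCaP-CT-ER. VCaP-CT, with a mean of 9.36 CPM, was close to VCaP-T, and the log2 fold change of VCaP-CT-ER against VCaP-T was 3.64 (standard error 0.0862, edgeR adjusted p = 4.65e-19). PTGER4, a prostaglandin E2 receptor, rose from a mean of 0.614 CPM in VCaP-T to 12.7 CPM in VCaP-CT-ER, 4.34 on the log2 scale (adjusted p = 7.37e-16 by edgeR). ADAM7, a metalloprotease family member of the epididymis, rose from 0.0927 to 7.15 CPM, 6.19 on the log2 scale (adjusted p = 4.04e-16 by edgeR), and overlaps ADAM7-AS2 on the other strand. ZBTB16, a transcriptional repressor, had 12.1, 11.9 and 15.4 CPM in VCaP-T and 34.0, 31.7 and 31.9 CPM in VCaP-CT-ER. None of these 4 genes overlapped between the 2 groups of libraries, which the rule that named them required. Of all genes, 7013 above VCaP-T (35.7%) and 7000 below it (35.7%) did not overlap either.

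**Figure D2:**
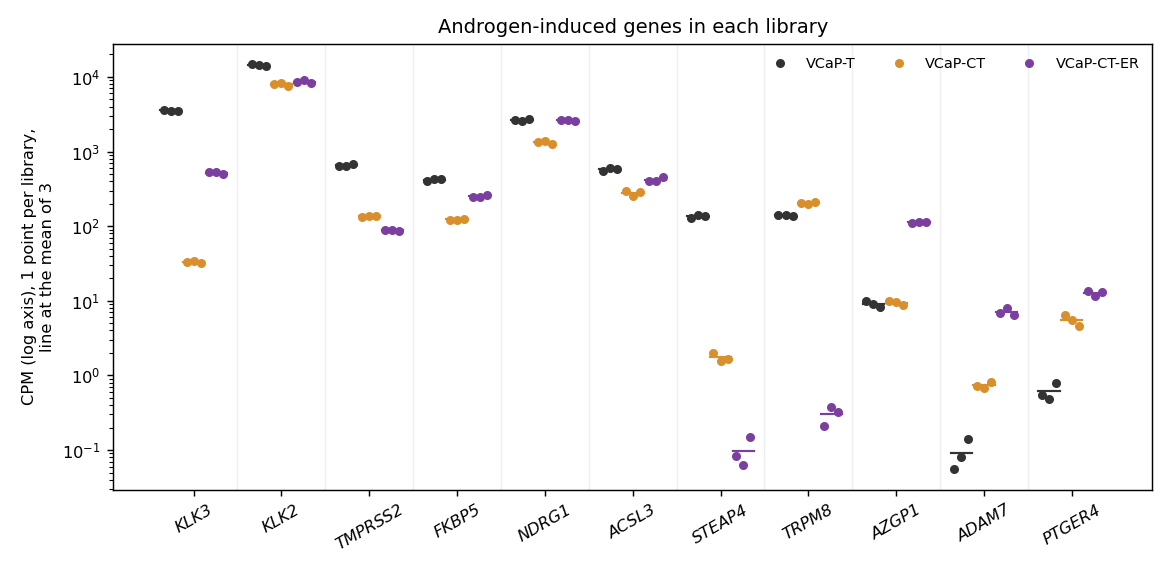
CPM of 11 androgen-induced genes on a log axis, with 1 point per library and a line at the mean of the 3 libraries of VCaP-T, VCaP-CT and VCaP-CT-ER. KLK3, TMPRSS2, STEAP4 and TRPM8 lay far below VCaP-T in VCaP-CT-ER, NDRG1 sat at its level, and AZGP1, ADAM7 and PTGER4 were above it.

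Genes that androgens hold down were also measured. ACKR3, a scavenging chemokine receptor, rose from 0.199 CPM in VCaP-T to 3.32 CPM in VCaP-CT-ER (log2 fold change 4.04, edgeR adjusted p = 6.47e-12). UGT2B15 and UGT2B17, which inactivate androgens by glucuronidation and whose near-identical sequences leave their split of reads uncertain, had log2 fold changes of 2.12 and 1.52. UGT2B15 had 0.716, 0.925 and 0.942 CPM in VCaP-T and 3.27, 3.40 and 4.69 CPM in VCaP-CT-ER, with 0.344 CPM in VCaP-CT below both groups. OPRK1, the kappa opioid receptor, went the other way, from 49.5 CPM in VCaP-T to 17.7 CPM in VCaP-CT and 2.35 CPM in VCaP-CT-ER (log2 fold change −4.40, edgeR adjusted p = 9.53e-21). CAMK2N1, an inhibitor of CaM kinase II, sat at the VCaP-T level, with means of 358 and 347 CPM.

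Among other steroid receptors, the glucocorticoid receptor NR3C1 (chr5:143277931-143435512) stayed low. It had 43.0, 49.98 and 45.7 CPM in VCaP-T and 5.40, 5.60 and 5.49 CPM in VCaP-CT-ER, −3.07 on the log2 scale (standard error 0.0939, adjusted p = 1.71e-16 by edgeR), with 2.26 CPM in VCaP-CT. The mineralocorticoid receptor NR3C2 was higher than in VCaP-T, at 6.64 against 2.25 CPM (log2 fold change 1.56, edgeR adjusted p = 8.69e-12). Of the 19 genes listed for steroid synthesis, inactivation and transport, 11 were tested. Of these, 4 lay above VCaP-T (36.4%, against 13.5% of all genes) and 5 below it (45.5%, against 17.8%). The other 2 sat at its level. AKR1C3, which makes testosterone from androstenedione and has close paralogs, rose from 3.43 to 17.3 CPM (log2 fold change 2.33, edgeR adjusted p = 3.00e-14). SRD5A1, a steroid 5-alpha-reductase, fell from 37.0 to 13.0 CPM (log2 fold change −1.52, edgeR adjusted p = 1.58e-14). HSD17B6, a steroid dehydrogenase that overlaps PRIM1 on the other strand, sat at the VCaP-T level with 12.3 CPM against 10.6 CPM, while VCaP-CT had 36.0 CPM.

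The luminal lineage was partly lowered. Of 16 lineage genes, 9 lay below VCaP-T (56.25%, against 17.8% of all genes), with a median log2 fold change of −0.92 over the list. Another 2 lay above it (12.5%, against 13.5%) and 3 at its level (18.75%, against 33.0%). KRT8, a keratin of luminal cells that overlaps KRT18 and has many pseudogenes, had 1045, 920 and 941 CPM in VCaP-T and 273, 257 and 243 CPM in VCaP-CT-ER (log2 fold change −1.91, edgeR adjusted p = 1.90e-15). The lineage factors moved less or in the other direction. FOXA1, a pioneer factor, sat at the VCaP-T level, with 489 CPM in VCaP-T and 640 CPM in VCaP-CT-ER (interval 0.30 to 0.48). HOXB13 had 595 CPM in VCaP-T and 391.8 CPM in VCaP-CT-ER, a difference that was not resolved at 1.5-fold (log2 fold change −0.60). GATA2, a zinc finger factor, had 187, 180 and 193 CPM in VCaP-T and 572, 526 and 504 CPM in VCaP-CT-ER (log2 fold change 1.52, edgeR adjusted p = 1.36e-13).

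Several secreted proteins were almost lost. CST2, a salivary-type cystatin that inhibits cysteine proteases (chr20:23823769-23826731), had 11056, 10171 and 9867 CPM in VCaP-T and 0.456, 0.188 and 0.174 CPM in VCaP-CT-ER, with 15.4 CPM in VCaP-CT. CST1 fell from 194 to 1.03 CPM (log2 fold change −7.54, edgeR adjusted p = 4.78e-22) and CST4 from 70.5 to 0.245 CPM (log2 fold change −8.13, edgeR adjusted p = 3.25e-21). CST5 had a mean of 24.97 CPM in VCaP-T and no count in VCaP-CT-ER, which is at least 376-fold lower against a floor of 3 counts per library. These cystatins are close paralogs and neighbours on chromosome 20, so the split of their reads is uncertain, but no member kept its VCaP-T level. CST3, a cystatin of most cell types, sat at the VCaP-T level in contrast, with a log2 fold change of −0.25. Of 13 tested secretory genes 7 lay below VCaP-T (53.8%, against 17.8% of all genes) and 3 above it (23.1%, against 13.5%).

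Neurosecretory genes were lower than in VCaP-T as well. Of 26 listed genes, 18 were tested, with a median log2 fold change of −2.66. Of these, 12 lay below VCaP-T (66.7%, against 17.8% of all genes), 4 above it (22.2%, against 13.5%) and 1 at its level. The parent VCaP-CT already had 14 of the 18 below VCaP-T (14.2% of all genes were) and 4 above it, with a median of −2.48. CHGA and NEUROD1, defining genes of neuroendocrine cells, had at most 1 and 0 counts in any library and were not tested. SYT4, a synaptotagmin of secretory vesicles, had 22.99, 25.3 and 24.8 CPM in VCaP-T and 0.0621, 0.0836 and 0.0497 CPM in VCaP-CT-ER. SNAP25, a fusion protein of synaptic vesicles, had 1878 counts over the VCaP-T libraries and 1 over those of VCaP-CT-ER, a ratio of 2217 (95% counting interval 397 to 87624). SYP, a vesicle membrane protein that overlaps SYP-AS1, had 33.0 CPM in VCaP-T and 5.07 CPM in VCaP-CT-ER. The 4 genes above VCaP-T in VCaP-CT-ER were ENO2, REST, NCAM1 and SCG2, of which REST encodes a repressor of neuronal genes. SCG2, a secretogranin, had 2.26, 2.53 and 2.75 CPM in VCaP-T, 11.4, 11.6 and 13.98 CPM in VCaP-CT-ER and a mean of 0.200 CPM in VCaP-CT. NCAM1, an adhesion molecule, had 6.99 CPM in VCaP-T, 1.903 CPM in VCaP-CT and 29.1 CPM in VCaP-CT-ER (log2 fold change against VCaP-T 2.05, edgeR adjusted p = 1.63e-15).

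The amino acid response was low throughout. When amino acids are short, the kinase GCN2 raises the translation of ATF4, which switches on genes of amino acid uptake and synthesis through the C/EBP-ATF element. All 16 tested genes of this list lay below VCaP-T by the 1.5-fold test, against 17.8% of all genes, with a median log2 fold change of −1.81. In VCaP-CT all 16 did so too, with a median of −2.59. The list was chosen with earlier results of these data known, so these counts only describe its members. Their summed level ranged from 4632 to 4875 CPM in VCaP-T, from 1388 to 1546 CPM in VCaP-CT and from 1709 to 1754 CPM in VCaP-CT-ER, and no library of either later subline reached the VCaP-T range. The letters TGATGNAA of the element were searched on both strands and occurred in 3.62% of all promoters and 4.46% of all gene symbols. The element was found in 4 of the 15 listed genes that have a promoter in that set, and these 4 are shown (RefSeq, GRCh38.p14), with the match in capitals. The positions are chr7:97872359-97872658 on the minus strand for ASNS, chr15:40953221-40953520 on the plus strand for CHAC1, chr13:29595639-29595938 on the minus strand for SLC7A1 and chr11:62881449-62881748 on the plus strand for SLC3A2.
ASNS: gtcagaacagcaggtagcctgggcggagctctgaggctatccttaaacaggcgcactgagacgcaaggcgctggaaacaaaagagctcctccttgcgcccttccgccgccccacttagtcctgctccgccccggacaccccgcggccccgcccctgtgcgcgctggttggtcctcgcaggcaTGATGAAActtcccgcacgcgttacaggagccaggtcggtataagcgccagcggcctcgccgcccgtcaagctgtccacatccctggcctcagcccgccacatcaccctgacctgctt
CHAC1: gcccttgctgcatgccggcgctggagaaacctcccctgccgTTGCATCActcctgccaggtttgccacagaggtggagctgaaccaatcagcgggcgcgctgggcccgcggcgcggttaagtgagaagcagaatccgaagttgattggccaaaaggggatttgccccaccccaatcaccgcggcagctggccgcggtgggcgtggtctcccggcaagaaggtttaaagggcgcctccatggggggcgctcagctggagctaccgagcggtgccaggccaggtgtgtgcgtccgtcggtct
SLC7A1: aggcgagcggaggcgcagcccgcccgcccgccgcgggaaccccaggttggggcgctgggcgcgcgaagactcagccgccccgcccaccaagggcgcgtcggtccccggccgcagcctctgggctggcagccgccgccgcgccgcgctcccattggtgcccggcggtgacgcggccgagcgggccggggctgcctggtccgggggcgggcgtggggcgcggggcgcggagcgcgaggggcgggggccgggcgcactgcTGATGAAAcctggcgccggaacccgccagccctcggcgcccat
SLC3A2: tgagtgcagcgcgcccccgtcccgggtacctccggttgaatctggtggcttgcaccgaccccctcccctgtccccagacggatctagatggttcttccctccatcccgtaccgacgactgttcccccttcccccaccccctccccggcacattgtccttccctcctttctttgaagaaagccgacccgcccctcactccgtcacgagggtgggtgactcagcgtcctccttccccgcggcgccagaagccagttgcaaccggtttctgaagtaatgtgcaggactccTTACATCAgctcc
The match began 68 bases before the start in ASNS and 209 bases before it in CHAC1, and lay after the start in the other 2. The 4 genes were named for this match and not for their size of change. ASNS, the asparagine synthetase, had 6.63, 5.99 and 6.71 CPM in VCaP-T and 2.51, 2.42 and 2.86 CPM in VCaP-CT-ER. CHAC1, which degrades glutathione, had 52.3, 47.7 and 55.2 CPM in VCaP-T and 6.56, 6.04 and 5.76 CPM in VCaP-CT-ER. Neither gene overlapped between the groups, and their log2 fold changes were −1.32 (edgeR adjusted p = 3.39e-09) and −3.08 (edgeR adjusted p = 7.52e-16).

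The largest losses of the list were in genes without this match in the window. SLC7A5, the light chain of a transporter of large neutral amino acids (chr16:87830023-87869488, with 2 pseudogenes and an unnamed gene on the other strand), had 54.1, 50.1 and 61.5 CPM in VCaP-T and 0.787, 1.253 and 0.695 CPM in VCaP-CT-ER. Its 2.61 CPM in VCaP-CT were also above VCaP-CT-ER, and the log2 fold change against VCaP-T was −5.90 (standard error 0.228, edgeR adjusted p = 7.73e-18). DDIT4, an inhibitor of mTORC1, had 150, 125 and 162 CPM in VCaP-T and 9.57, 8.33 and 9.34 CPM in VCaP-CT-ER, near the 9.71 CPM of VCaP-CT. The stress factors DDIT3 and ATF3, which other lists hold, were lower as well, with 42.4 against 173 CPM and 4.09 against 25.8 CPM. ATF4 itself had the smallest change of the list, with −0.76 on the log2 scale (adjusted p = 6.97e-12 by edgeR).

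**Figure D3:**
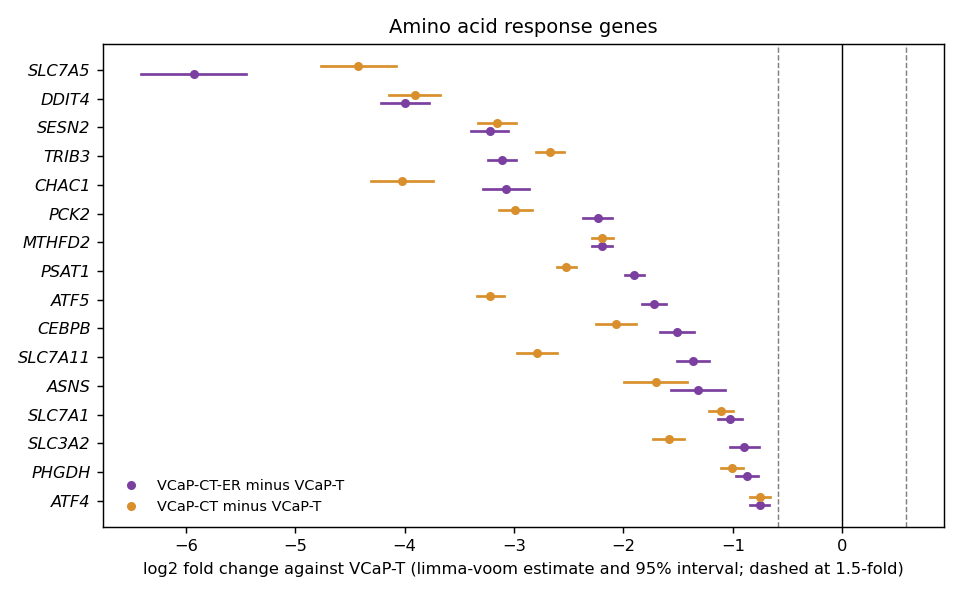
The 16 amino acid response genes with the limma-voom log2 fold change (points) and its 95% interval (lines) against VCaP-T, for VCaP-CT-ER in purple and VCaP-CT in orange, which share the VCaP-T libraries. Every interval lies left of the dashed line at 1.5-fold below VCaP-T, with SLC7A5 farthest out in both.

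Cell cycle genes lay above VCaP-T. Of 54 G2/M genes of the Seurat list, 32 were above by the 1.5-fold test (13.5% of all genes), none was below, and 9 sat at the VCaP-T level, with a median log2 fold change of 0.78. In VCaP-CT 4 of them lay above VCaP-T and 41 at its level. Of 42 S phase genes, 22 were above in VCaP-CT-ER and none below (median 0.74), and in VCaP-CT 11 were above and 1 below. The summed level of the G2/M genes ranged from 4189 to 4583 CPM in VCaP-T and from 7770 to 8250 CPM in VCaP-CT-ER. HMGB2, a chromatin protein of dividing cells with a pseudogene, had 124, 133 and 137 CPM in VCaP-T and 489, 459 and 506 CPM in VCaP-CT-ER (log2 fold change 1.88, edgeR adjusted p = 7.35e-17). EXO1, a DNA exonuclease, and CDCA3, a mitotic gene, followed with log2 fold changes of 1.66 and 1.55. RRM2, a subunit of ribonucleotide reductase with 3 pseudogenes, sat at the VCaP-T level with 47.5 against 39.8 CPM, above the 22.0 CPM of VCaP-CT. CDKN1A, an inhibitor of cyclin-dependent kinases, had 86.4 CPM against 98.1 CPM in VCaP-T and 34.7 CPM in VCaP-CT, and its interval, −0.31 to −0.05, lay inside 1.5-fold.

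**Figure D4:**
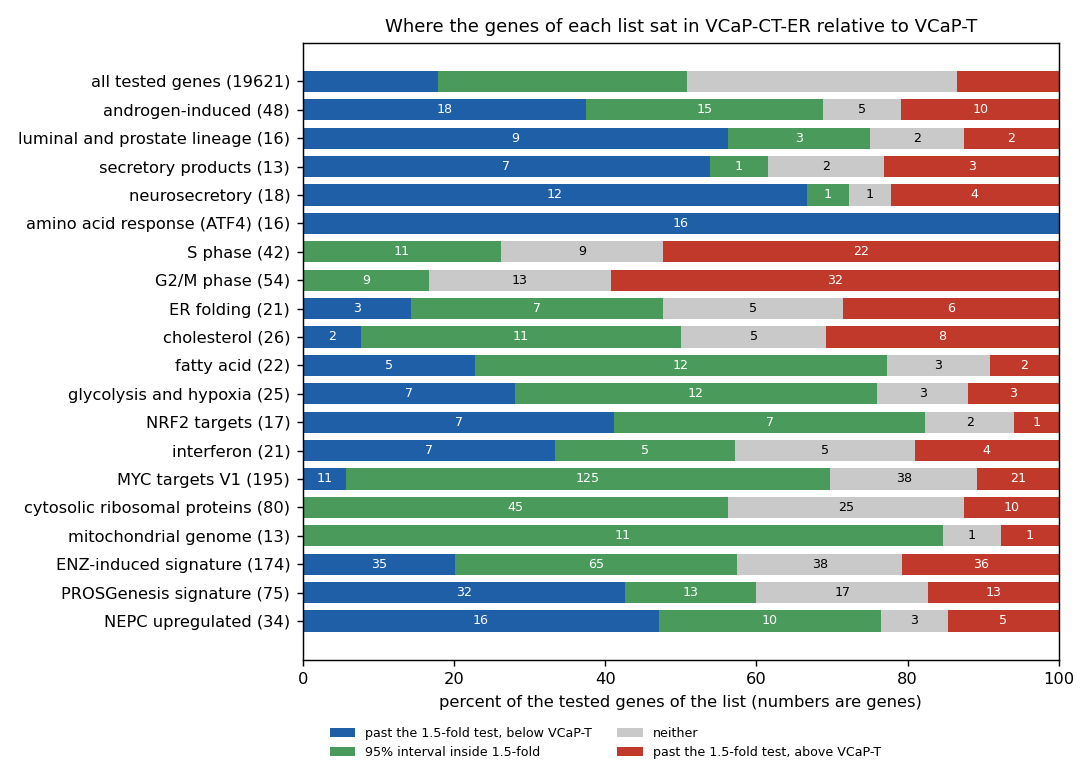
Each bar divides the tested genes of a list (number in parentheses) into those past the 1.5-fold test below VCaP-T (blue), at the VCaP-T level (green), meeting neither condition (grey) and past the test above VCaP-T (red). All 16 amino acid response genes are blue, 32 of 54 G2/M genes are red, and 11 of 13 mitochondrially encoded genes are green.

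Some genes that were far from VCaP-T in VCaP-CT sat at the VCaP-T level in VCaP-CT-ER. The protein-coding genes at this level were ordered by their distance in VCaP-CT, a choice that fixes the size of that distance. RAMP1, a partner of the calcitonin receptor family (chr2:237858893-237912114), led them, with 28.5, 27.1 and 30.4 CPM in VCaP-T, 42.1, 38.1 and 31.1 CPM in VCaP-CT-ER and a mean of 0.599 CPM in VCaP-CT. CADPS, a priming factor of dense-core vesicles, had 60.7, 61.1 and 59.5 CPM in VCaP-T and 68.1, 62.2 and 69.7 CPM in VCaP-CT-ER, against 5.80 CPM in VCaP-CT. ID4, an inhibitor of basic helix-loop-helix factors, had 172, 170 and 158 CPM in VCaP-T and 155, 149 and 164 CPM in VCaP-CT-ER, against 20.7 CPM in VCaP-CT. The libraries of VCaP-T and VCaP-CT-ER overlapped for ID4 and not for RAMP1 and CADPS, whose differences were small. THBS1, a matrix glycoprotein, had 435 and 400 CPM in VCaP-T and VCaP-CT-ER and 71.5 CPM in VCaP-CT, and GPX3, a secreted glutathione peroxidase, had 308, 274 and 64.8 CPM in the same order. Return occurred from above too. ASPH, an aspartyl hydroxylase, had 63.4, 68.9 and 67.6 CPM in VCaP-T and 78.3, 79.4 and 84.7 CPM in VCaP-CT-ER, against 391 CPM in VCaP-CT, and PRSS23, a serine protease, had 15.7, 19.8 and 83.9 CPM in VCaP-T, VCaP-CT-ER and VCaP-CT. THBS1, ASPH and PRSS23 overlap genes on the other strand.

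Other genes were expressed in VCaP-CT-ER and hardly or not at all in VCaP-T. GPM6A, a neuronal membrane proteolipid (chr4:175632934-176002664), had no count in the VCaP-T libraries and 262, 265 and 288 CPM in VCaP-CT-ER. This was at least 3472-fold higher against the floor of 3 counts per library, and VCaP-CT had 0.203 CPM. GRIA2, a glutamate receptor subunit, was at least 112-fold higher and MECOM, a zinc finger factor, at least 77.1-fold higher, both with no count in VCaP-T. PCDH19, a protocadherin on chromosome X, had 0, 0.0272 and 0.118 CPM in VCaP-T and 158, 155 and 163 CPM in VCaP-CT-ER. LUM, a collagen-binding proteoglycan of fibroblasts (chr12:91102629-91111831), had 0.606, 1.17 and 0.494 CPM in VCaP-T and 189, 183 and 215 CPM in VCaP-CT-ER, with 6.24 CPM in VCaP-CT. The log2 fold change was 8.03 (standard error 0.288, edgeR adjusted p = 1.79e-20), while the fibroblast collagen COL1A1 fell from 6.56 to 0.431 CPM and COL1A2 had no count. HOPX, a homeodomain protein, rose from 0.0600 to 36.5 CPM (log2 fold change 9.16, edgeR adjusted p = 1.23e-20).

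PLOD2, which hydroxylates lysines of collagen for crosslinking, was the only 1 of 12 collagen crosslinking genes above VCaP-T (8.33%, against 13.5% of all genes). Of the 12, 5 lay below it (41.7%, against 17.8%) and 5 at its level (41.7%, against 33.0%). PLOD2 had 2.51, 2.86 and 3.32 CPM in VCaP-T and 187, 172 and 215 CPM in VCaP-CT-ER. Of 26 cholesterol genes, 8 lay above VCaP-T (30.8%), 2 below (7.69%) and 11 at its level (42.3%), with a median of 0.47. MSMO1 and HMGCS1, enzymes of sterol synthesis, rose from 64.4 to 314 CPM and from 89.8 to 272 CPM, whereas ABCG1, a sterol exporter, fell from 46.9 to 9.07 CPM. Of 22 fatty acid genes 2 lay above (9.09%), 5 below (22.7%) and 12 at the level (54.5%). DGAT2, which makes triglycerides, rose from 12.7 to 49.98 CPM. Of 25 glycolysis and hypoxia genes 3 lay above (12%), 7 below (28%) and 12 at the level (48%). VEGFA, the vascular growth factor, had 406, 396 and 400 CPM in VCaP-T and 43.1, 42.7 and 42.1 CPM in VCaP-CT-ER (log2 fold change −3.23, edgeR adjusted p = 4.48e-21), with 85.5 CPM in VCaP-CT. VEGFA and HMGCS1 each overlap an unnamed gene on the other strand.

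Of 17 NRF2 targets 7 lay below VCaP-T (41.2%, against 17.8% of all genes) and 1 above (5.88%, against 13.5%). Another 7 sat at its level (41.2%, against 33.0%). NQO1, a quinone reductase that overlaps an unnamed gene on the other strand, had 18.4, 18.2 and 16.5 CPM in VCaP-T and 0.0828, 0.0627 and 0.149 CPM in VCaP-CT-ER. Of 21 endoplasmic reticulum folding genes 6 lay above VCaP-T (28.6%), 3 below (14.3%) and 7 at its level (33.3%). The 6 above were the chaperones and folding factors HSPA5, HSP90B1, CALR, MANF, SDF2L1 and CRELD2, and the 3 below were the stress sensors ERN1 and ATF6 and the stress factor DDIT3. MANF rose from 36.3 to 133 CPM (log2 fold change 1.88, edgeR adjusted p = 1.84e-16). Of 10 polyamine genes, SMS, the spermine synthase, lay above VCaP-T with 477 against 97.2 CPM, and 4 lay below, among them SAT1, which breaks spermine down, with 230 against 700 CPM.

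Immediate early genes, which cells induce within minutes of a stimulus, were mostly above VCaP-T. Of 8 tested, 5 lay above (62.5%, against 13.5% of all genes) and 2 below (25%, against 17.8%). FOS had 13.5, 13.0 and 7.58 CPM in VCaP-T and 210, 110 and 145 CPM in VCaP-CT-ER (log2 fold change 3.79, edgeR adjusted p = 3.80e-13), and FOSB had 1.57, 1.03 and 1.13 CPM and 51.4, 20.8 and 26.8 CPM. Their groups did not overlap, which the naming rule required, but the libraries of VCaP-CT-ER differed among themselves. Replicate 1 was the highest for both genes. These genes also respond to handling of the culture, whose part in the result was not tested. Of 21 interferon-stimulated genes 4 lay above (19.0%, against 13.5% of all genes) and 7 below (33.3%, against 17.8%). Another 5 sat at the level (23.8%, against 33.0%).

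Mitochondrially encoded, ribosomal and MYC target genes were next compared with VCaP-T, and as abundant genes they are read beside the 59.3% at the level among genes with an average log2 CPM over 6. Of 13 mitochondrially encoded genes 11 sat at its level (33.0% of all genes did) and 1 met neither condition. The other 1 lay above, which was MT-ND6 with a log2 fold change of 0.79. By the edgeR test against no change, 9 of the 13 lay above VCaP-T (34.3% of all genes) and 1 below it. Their summed level ranged from 73486 to 74882 CPM in VCaP-T and from 81810 to 85410 CPM in VCaP-CT-ER. Of 80 cytosolic ribosomal protein genes 45 sat at the level (56.2%), 10 lay above and none below. By the edgeR test against no change, 62 of the 80 lay above VCaP-T (34.3% of all genes) and 4 below it. In VCaP-CT 42 of these 80 lay above VCaP-T and 16 sat at its level. Ribosomal protein genes have many pseudogenes that may share their reads. Of 195 MYC target genes 125 sat at the level (64.1%), 21 lay above and 11 below. In the edgeR test against no change, 107 of the 195 lay above VCaP-T (34.3% of all genes) and 46 below it (34.7%).

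Signatures from other material were read against the same background. The ENZ-induced signature, drawn by the study from single LNCaP cells, had 36 of 174 tested genes above VCaP-T (20.7%, against 13.5% of all genes). Of the 174, 35 lay below it (20.1%, against 17.8%) and 65 at its level (37.4%, against 33.0%). AIDA, which overlaps BROX and has 3 pseudogenes, was among those above, with 13.2, 12.4 and 12.5 CPM in VCaP-T and 217, 213 and 259 CPM in VCaP-CT-ER. The PROSGenesis signature, from mouse prostate luminal cells, had 32 of 75 genes below VCaP-T (42.7%) and 13 above (17.3%), with a median of −0.42. The study scored both signatures in VCaP sublines by gene set variation analysis. It reported high ENZ-induced scores only in ENZ-resistant cells, and high PROSGenesis scores in parental and ENZ-resistant cells. Those scores and the gene counts given here are different measures, and the scores were not recomputed. CEACAM1, a cell adhesion molecule that overlaps LIPE-AS1, fell from 30.6 to 0.765 CPM (log2 fold change −5.32, edgeR adjusted p = 7.29e-20). The signature of genes upregulated in NEPC, neuroendocrine prostate cancer, had 16 of 34 genes below VCaP-T (47.1%) and 5 above (14.7%). TOX, a high-mobility-group factor that overlaps TOX-DT, was among the latter, rising from 0.278 to 10.3 CPM. Of 11 surface antigens, 3 lay above (27.3%), 3 below (27.3%) and 5 at the level (45.5%). FOLH1, which encodes PSMA, had 1.76, 1.82 and 1.74 CPM in VCaP-T and 20.03, 17.4 and 23 CPM in VCaP-CT-ER, and STEAP1 sat at the VCaP-T level with 207 against 167 CPM.

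The distance from VCaP-T was uneven along the genome. Over the autosomes and chromosome X, the share of genes above VCaP-T was highest on chromosomes 3 (25.2%), 4 (24.2%), X (24.2%) and 14 (22.6%) and lowest on chromosomes 17 (5.11%) and 7 (6.45%), against 13.5% of all genes. On chromosome 17, 23.2% of genes lay below VCaP-T, against 17.8% of all genes. In windows of 25 neighbouring tested genes, the median log2 fold change ranged from −0.55 at the 5th percentile to 0.59 at the 95th of 19009 overlapping windows. The highest window, chr11:57703714-59143015, had a median of 1.76 with 15 genes above VCaP-T and none below, among them GLYAT, GLYATL1 and GLYATL2 of the glycine acyltransferase family, whose members may share reads. The next, chr3:106836811-112499561, had a median of 1.54 with 19 genes above and included CD47, an inhibitor of phagocytosis, and CIP2A, an inhibitor of PP2A. The third, chr4:68053198-73456174, held UGT2B15, ODAM and ALB and had a median of 1.32, with 0.76 in VCaP-CT. The lowest window, chr5:140664676-141191541, had a median of −1.91 with 20 of 25 genes below VCaP-T. It spans the clustered protocadherins PCDHA and PCDHB, neuronal adhesion molecules whose variable exons share reads with each other, and its median in VCaP-CT was 0.13. The next lowest, chr22:32039490-35394214, was low in both sublines, with medians of −1.89 for VCaP-CT-ER and −2.13 for its parent. The third, chr8:38411138-42541926, with FGFR1 and ADAM9 among 17 genes below, had a median of −1.25, and −0.69 in VCaP-CT. The files hold no measure of DNA copy number, and its part in these runs was not tested.

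**Figure D5:**
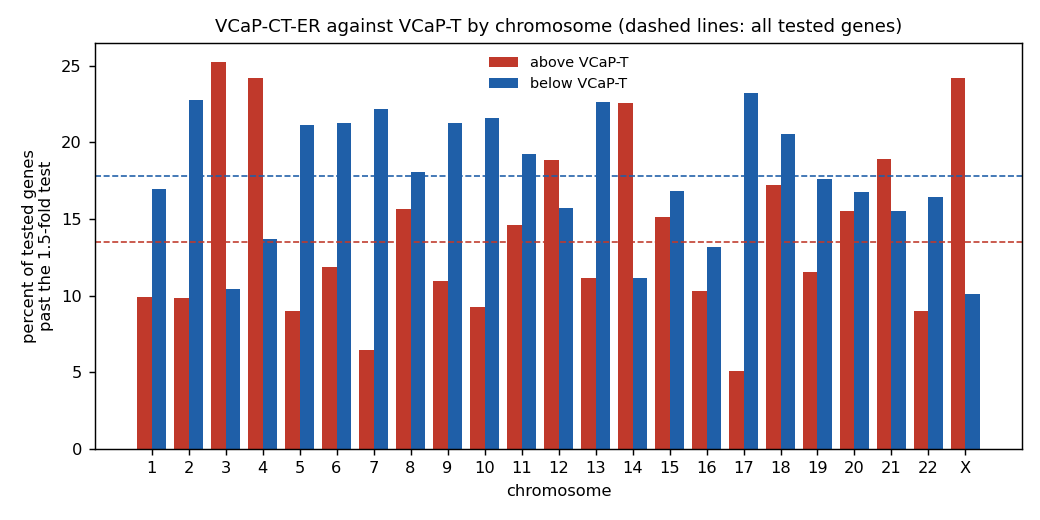
Percent of tested genes past the 1.5-fold test above (red) and below (blue) VCaP-T on each autosome and chromosome X, with dashed lines at the shares over all genes (13.5% and 17.8%). Chromosomes 3, 4, 14 and X have the tallest red bars, and chromosomes 7 and 17 the shortest.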

How the data were processed

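Bulk RNA-seq of the VCaP sublines was analysed from the raw counts that the authors deposited, 1 table per library. Per the file headers and the submitters' processing notes, Illumina reads were aligned to GRCh38 with STAR 2.5.4b and counted per gene with featureCounts 1.6.2, without regard to strand, on GENCODE 28. Symbols came from GENCODE 44 by identifier (57754 of 58381). Gene positions are those of the counting annotation. Counts were fitted with edgeR 4.0.16 in R 4.3.3 over all 15 libraries with a term per subline, filterByExpr at a minimum count of 10, TMM normalization, quasi-likelihood F tests, glmTreat against 1.5-fold and Benjamini-Hochberg adjustment at 0.05. Standard errors and 95% intervals are from limma-voom 3.58.1, log2 fold changes in the text from edgeR. All tests were two-sided. CPM use TMM library sizes. The floor of 3 counts was 6.39e-08 to 8.14e-08 of a library in the 6 libraries. Floors and counting intervals cover counting error only. Lists of cell cycle genes came from Seurat 5.3.0.

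The members and lists were chosen with earlier results of these data known. Genes were named by rule: a fixed set of prostate genes, the 2 members of each list farthest above and the 2 farthest below VCaP-T, the list member at its level farthest away in VCaP-CT, the 10 protein-coding genes of each such kind among all genes, and members of the 3 highest and 3 lowest windows. These extremes needed the 1.5-fold test, libraries that did not overlap and a mean log2 CPM of 1 or more. The text names fewer. Genes named as members of a class or for a promoter match were chosen after their values were seen. Some genes that the rule selects are not reported here.

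Tested on simulated data for this comparison (18999 genes), the 1.5-fold test found 40 of 65 genes changed 2-fold, 61 of 66 changed 4-fold and 0 unchanged ones. Far fewer genes were changed in the simulation than differed in these data, so these shares need not hold here. Alternatives were other scalings, filters and margins, a fit of the 6 libraries, a replicate block, DESeq2 1.42.0 and leaving out each library. Figures were drawn with matplotlib 3.10.9.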

Additional observations from a re-analysis of the deposited data

How the results depend on the processing

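The counts of genes above and below VCaP-T stayed within 1.5 times their main value under other scalings, other filters, a fit of the 6 libraries, DESeq2 and the loss of any one library. The margin set the rest by construction: at 25% 4548 genes lay above VCaP-T and 2587 at its level, and at 2-fold 1213 lay above, 2177 below and 11376 at its level. With one VCaP-T or VCaP-CT-ER library left out, genes above VCaP-T numbered 6378 to 6518, genes below it 6599 to 6705, those past the 1.5-fold test 2511 to 2570 above and 3416 to 3505 below, and those at its level 6044 to 6303. Same-numbered replicates of VCaP-T and VCaP-CT-ER did not deviate together (correlations 0.11, −0.20 and −0.34 across 13052 genes), so the numbers do not pair them. Between replicates of different number the correlations ranged from −0.35 to 0.44. A block by replicate number cannot take up such shared deviations. A replicate block gave 6704, 6805, 2620, 3474 and 6438 for these 5 counts in the same order. Over 11 alternatives, 913 log2 fold changes of 83 of the named genes were recomputed and no called one reversed. In 15 cases a small difference of CADPS, CDKN1A, GPX3, HSD17B6 or THBS1 missed the threshold against no change. Depth limited genes with few counts, of which most met neither condition, and the single derivation of each subline limits every comparison.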
